A study of Mus musculus with 4 samples.

Results

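Methylated promoter regions are described here in pancreatic islets of WT and βRapKO mice, as seen by MeDIP-seq. In this assay an antibody to methylated cytosine pulls down sheared DNA before sequencing, and the sequenced fragments (tags) pile up into peaks where methylated CpG sites are dense. Peaks of the 4 libraries that overlapped by at least 1 bp were joined into 180857 regions on chromosomes 1 to 19. A region was counted as a promoter region when it overlapped the window from 1000 bp upstream to 500 bp downstream of the start of a protein-coding gene in the GENCODE annotation of mm10. This choice used positions only, and it left 3591 promoter regions, 1.99% of all regions.

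There were 2 libraries from WT islets and 2 from βRapKO islets. WT mice were Raptor lox/lox littermates without Cre, and βRapKO mice were Raptor lox/lox; RipCre, so both genotypes carried the floxed Raptor allele. Cre was driven by the rat insulin promoter, which is active in insulin-producing β-cells, while the islets sequenced also held other cell types. The labels give the strain as C57BL/6, while the study's methods give C57BL/6J for the floxed line and a mixed C57BL/6J:129/SvJ background for the Cre line. The mice were male and 8 weeks old, and the islets were picked by hand after digestion with Collagenase P. How many animals went into a library was not given, so every p-value below measures the spread between these libraries. A lower signal in fewer cells and a lower signal in each cell cannot be told apart in such samples.

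Raptor, encoded by Rptor, is the subunit that recruits substrates to mTORC1, a kinase complex that couples nutrients to growth. In mammals most CpG sites are methylated, but the CpG islands found at many promoters are kept free of methylation in nearly all cells. Methylated CpG islands occur at promoters of germline genes, which are silenced in somatic tissue, at one parental copy of imprinted genes, and on the inactive X chromosome. Promoters with few CpG sites are often methylated in tissues that do not use the gene.

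The sequences below are examples and do not stand for all promoters of their groups. Each is the stretch of 200 bases just upstream of the RefSeq start, from 5′ to 3′ on the strand of the gene (GRCm38.p6), with CpG sites in capitals. Tdrd1 (chr19:56826009-56826208, plus strand), Hormad1 (chr3:95559477-95559676, plus strand) and Sycp1 (chr3:102936101-102936300, minus strand) are germline genes, and Fkbp6 (chr5:135350045-135350244, minus strand) was listed among the imprinted genes. The starts of these 4 genes lay inside a region with a peak in all 4 libraries.
Tdrd1: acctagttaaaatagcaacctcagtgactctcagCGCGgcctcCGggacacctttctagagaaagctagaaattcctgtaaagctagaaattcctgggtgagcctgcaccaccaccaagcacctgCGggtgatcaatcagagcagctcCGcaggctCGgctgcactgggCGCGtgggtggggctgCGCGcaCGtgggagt
Hormad1: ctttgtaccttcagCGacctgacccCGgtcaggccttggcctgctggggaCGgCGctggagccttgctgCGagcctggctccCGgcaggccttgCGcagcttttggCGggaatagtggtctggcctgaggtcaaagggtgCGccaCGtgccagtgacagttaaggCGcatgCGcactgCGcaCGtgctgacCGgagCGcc
Sycp1: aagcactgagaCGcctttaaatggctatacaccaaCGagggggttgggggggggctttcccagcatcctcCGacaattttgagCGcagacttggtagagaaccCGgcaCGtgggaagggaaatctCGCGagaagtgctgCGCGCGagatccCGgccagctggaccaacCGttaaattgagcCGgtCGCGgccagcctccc
Fkbp6: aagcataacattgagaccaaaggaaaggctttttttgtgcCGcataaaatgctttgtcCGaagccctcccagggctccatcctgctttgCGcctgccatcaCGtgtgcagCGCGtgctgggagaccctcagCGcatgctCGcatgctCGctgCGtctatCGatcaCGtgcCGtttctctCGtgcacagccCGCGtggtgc

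These 4 promoters held 11, 16, 16 and 16 CpG sites in the 200 bases. Cort (chr4:149126764-149126963, minus strand), with 7 sites, is shown because its peaks differed most between the genotypes in unadjusted p.
Cort: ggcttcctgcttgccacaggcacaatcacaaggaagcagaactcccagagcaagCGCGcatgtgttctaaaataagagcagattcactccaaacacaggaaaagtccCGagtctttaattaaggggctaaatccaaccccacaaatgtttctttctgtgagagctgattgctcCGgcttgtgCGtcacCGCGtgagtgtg

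Rptor (chr11:119602705-119602904, plus strand), the targeted gene, and Mtor (chr4:148448382-148448581, plus strand), the kinase of the complex, had 8 and 13 CpG sites and no promoter region in any library. Slc2a2 (chr3:28697703-28697902, plus strand), the glucose transporter of mouse β-cells, had 0 CpG sites in the 200 bases and no promoter region either, so that a peak there could only come from CpG sites farther away.
Rptor: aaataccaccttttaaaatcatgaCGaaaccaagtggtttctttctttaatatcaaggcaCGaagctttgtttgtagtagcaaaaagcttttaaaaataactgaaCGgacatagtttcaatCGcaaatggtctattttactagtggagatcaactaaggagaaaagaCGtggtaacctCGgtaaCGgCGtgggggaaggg
Mtor: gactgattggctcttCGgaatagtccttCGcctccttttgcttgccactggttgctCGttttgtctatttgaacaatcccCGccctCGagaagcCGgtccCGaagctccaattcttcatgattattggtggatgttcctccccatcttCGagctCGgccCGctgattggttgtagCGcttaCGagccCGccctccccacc
Slc2a2: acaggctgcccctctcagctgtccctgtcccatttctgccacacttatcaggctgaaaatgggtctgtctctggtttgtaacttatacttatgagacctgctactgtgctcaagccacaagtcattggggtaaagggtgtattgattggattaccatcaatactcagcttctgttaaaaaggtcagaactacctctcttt

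After MACS had kept 1 tag per position, WT replicates 1 and 2 had 25585533 and 31330751 tags, and βRapKO replicates 1 and 2 had 29220997 and 29175287. MACS called 2480 and 2997 promoter regions in WT and 2402 and 2488 in βRapKO, between 2.10% and 2.17% of the regions of each library. The deepest library, WT replicate 2, had the most. Of the promoter regions, 1664 (46.3%) had a peak in all 4 libraries, 615 in 3, 554 in 2 and 758 in 1. Among all regions 40.1% were called in all 4 libraries. A region without a call holds no count in that library, which does not show that methylation was absent, because the lowest peak called held 23 tags.

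Most promoters had no methylated region. Of 20807 protein-coding genes, 3613 (17.4%) had a promoter region in at least 1 library, and 1731 (8.32%) had one with a peak in all 4. The gene start itself lay inside a region called in all 4 libraries for 768 genes. Most of the regions, 3477 of 3591, touched the window of 1 gene, while 114 touched the windows of 2 or more genes, so that genes sharing a region share its counts. Genes with 2 or more promoter regions numbered 95.

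Promoters were then split by CpG content. A promoter was called CpG-rich when a 500 bp interval of its window had at least 55% G and C and a ratio of observed to expected CpG of at least 0.75, CpG-poor when no interval reached a ratio of 0.48, and intermediate otherwise. Of 9773 CpG-rich genes, 527 (5.39%) had a region called in all 4 libraries, and the start lay inside it for only 87 (0.890%). Of 3899 intermediate genes, 643 (16.5%) had such a region, and 410 (10.5%) had their start inside it. The values for 7135 CpG-poor genes were 561 (7.86%) and 271 (3.80%). A peak needs methylated CpG sites, so that a low share among CpG-poor genes, with a median of 0.800 CpG sites per 100 bp of the window, does not show that their few sites were unmethylated.

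**Figure D1:**
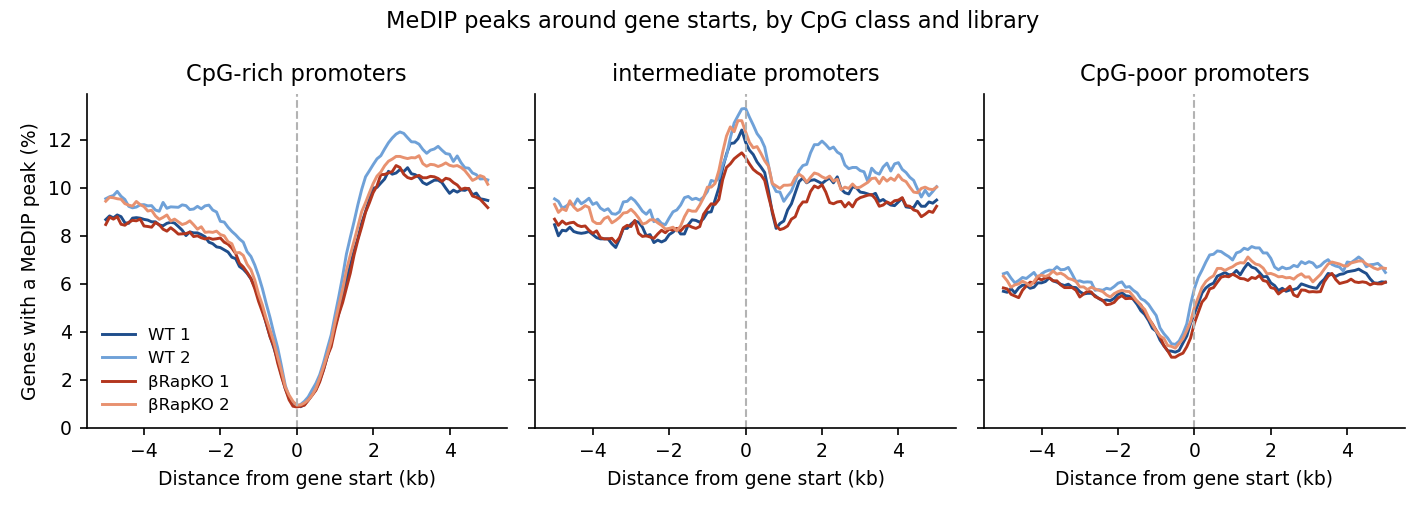
Percent of protein-coding genes with a MeDIP peak at each distance from the gene start in kb (x axis), for CpG-rich, intermediate and CpG-poor promoters, with 1 line per library. At the start itself the 4 libraries sat between 0.870% and 0.962% for CpG-rich genes and between 11.3% and 13.3% for intermediate genes.

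The position of the regions followed the same classes in all 4 libraries. At CpG-rich genes the share of starts within a peak was 0.962% and 0.911% in WT and 0.870% and 0.941% in βRapKO, while 2000 bp downstream it was 9.99%, 11.0%, 9.80% and 10.2%. At intermediate genes the profile rose towards the start, where it reached 11.9% and 13.3% in WT and 11.3% and 12.3% in βRapKO. At CpG-poor genes it was lowest upstream, with 3.15%, 3.48%, 2.94% and 3.32% at 500 bp before the start. The genotypes overlapped at each of these points.

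The promoter regions of CpG-rich genes therefore mostly lay beside the start and not on it. Among 529 pairs of a CpG-rich gene and a region called in all 4 libraries, 16.5% covered the start, 69.4% lay upstream only and 14.2% lay downstream only, with a median summit 1039 bp upstream. Among 646 pairs at intermediate genes 63.5% covered the start, and the median summit was 27.9 bp upstream. Among 562 pairs at CpG-poor genes 48.2% covered the start, with a median summit 223 bp downstream.

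Promoter regions called in all 4 libraries had a median width of 1554 bp, 2.02 CpG sites per 100 bp, a repeat share of 16.0% of their bases and 2.56 tags per 1000000 tags of the library (CPM). Other regions called in all 4 libraries had medians of 1427 bp, 1.76 CpG sites per 100 bp, 26.6% and 2.32 CPM. Per kb of peak the order was the other way, with a median density of 1.94 CPM per kb at promoters and 1.98 elsewhere. The higher CPM of promoter regions went with their greater width.

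Germline genes held the largest share of methylated promoters among the 13 gene groups examined. Of 24 genes with a role in germ cells, such as the meiotic chromosome proteins Sycp1, Sycp2 and Sycp3 and the piRNA pathway genes Tdrd1, Mov10l1, Asz1 and Piwil2, 21 had a promoter region in at least 1 library and 17 (70.8%) had one in all 4. Among all protein-coding genes the latter share was 8.32%. The difference was not tested, because the gene groups were chosen with earlier results of these data known. Methylation is also the known state of many germline promoters. Of the 24 promoters 16 were CpG-rich, a class in which the share was 5.39%. Spo11, Meiob and Mei1 had no promoter region, Tex15 had one in 1 library, Smc1b in 2, and Stag3 and Msh4 in 3.

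Dazl, an RNA-binding protein of germ cells, had the highest CPM of the group. Its region (chr17:50292913-50295624) reached from 1988 bp upstream to 723 bp downstream of the start, with 9.26 and 10.4 CPM in WT and 7.26 and 10.2 CPM in βRapKO. Dpep3, a membrane dipeptidase of testis, had 7.50 and 6.22 CPM in WT and 4.59 and 5.79 CPM in βRapKO at chr8:105978080-105980115. Rpl10l, a retrocopy that replaces the ribosomal protein gene Rpl10 in male meiosis, had 5.90 and 6.74 CPM in WT and 5.54 and 5.72 CPM in βRapKO at chr12:66283238-66285240. Mov10l1, a helicase needed for piRNA production, had 6.02 and 6.35 CPM in WT and 4.89 and 5.96 CPM in βRapKO at chr15:88982191-88984059. The 2 genotypes overlapped at Dazl and did not overlap at Dpep3, Rpl10l and Mov10l1. Of all promoter regions 29.6% were lower in βRapKO without overlap, beside 25.3% of all regions.

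The hexamer CACGTG, an E-box that reads the same on both strands, was counted in the 200 bases before the start, because it holds a CpG site and is a known motif of germline promoters. It was found in 9 of the 18 germline promoters with a RefSeq start within 500 bp of the GENCODE start (50.0%), among them the 3 germline sequences printed above. Among all 13112 such promoters 6.48% held it, and among CpG-rich promoters 8.34%. Of 17 imprinted promoters 3 held it (17.6%), and the printed Fkbp6 sequence holds 2 copies. All 3 printed germline sequences hold the motif, so they do not stand for the germline group. TCCCGC, the core of the E2F motif (searched on both strands), was found in 6 of the 18 (33.3%), in 22.1% of all promoters and in 33.3% of CpG-rich promoters. A match says only that the letters are in the window.

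Imprinted genes came second. Of 25 genes, 18 had a promoter region in at least 1 library and 12 (48.0%) had one in all 4. Methylation of one parental copy is the known state of many of these promoters, and the tags do not separate the copies. Peg10, a retrotransposon-derived gene, and Sgce, an adjoining sarcoglycan gene, share one region (chr6:4745864-4749736) with 11.2 and 8.81 CPM in WT and 6.91 and 9.63 CPM in βRapKO. The genotypes overlapped there. Peg3 and Usp29 share another region (chr7:6728897-6731839), with 6.80 and 6.89 CPM in WT and 6.74 and 6.92 CPM in βRapKO, the smallest difference in the group. Fkbp6, a chaperone needed in meiosis, had 8.68 and 9.07 CPM in WT and 6.64 and 8.06 CPM in βRapKO at chr5:135349008-135350927. Inpp5f, a lipid phosphatase, had 10.4 and 10.6 CPM in WT and 9.41 and 9.87 CPM in βRapKO, but its region (chr7:128608014-128610482) ended 846 bp before the start and was 90.6% repeat sequence. At Fkbp6 and Inpp5f both βRapKO libraries were below both WT values, as at 29.6% of all promoter regions and 25.3% of all regions.

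**Figure D2:**
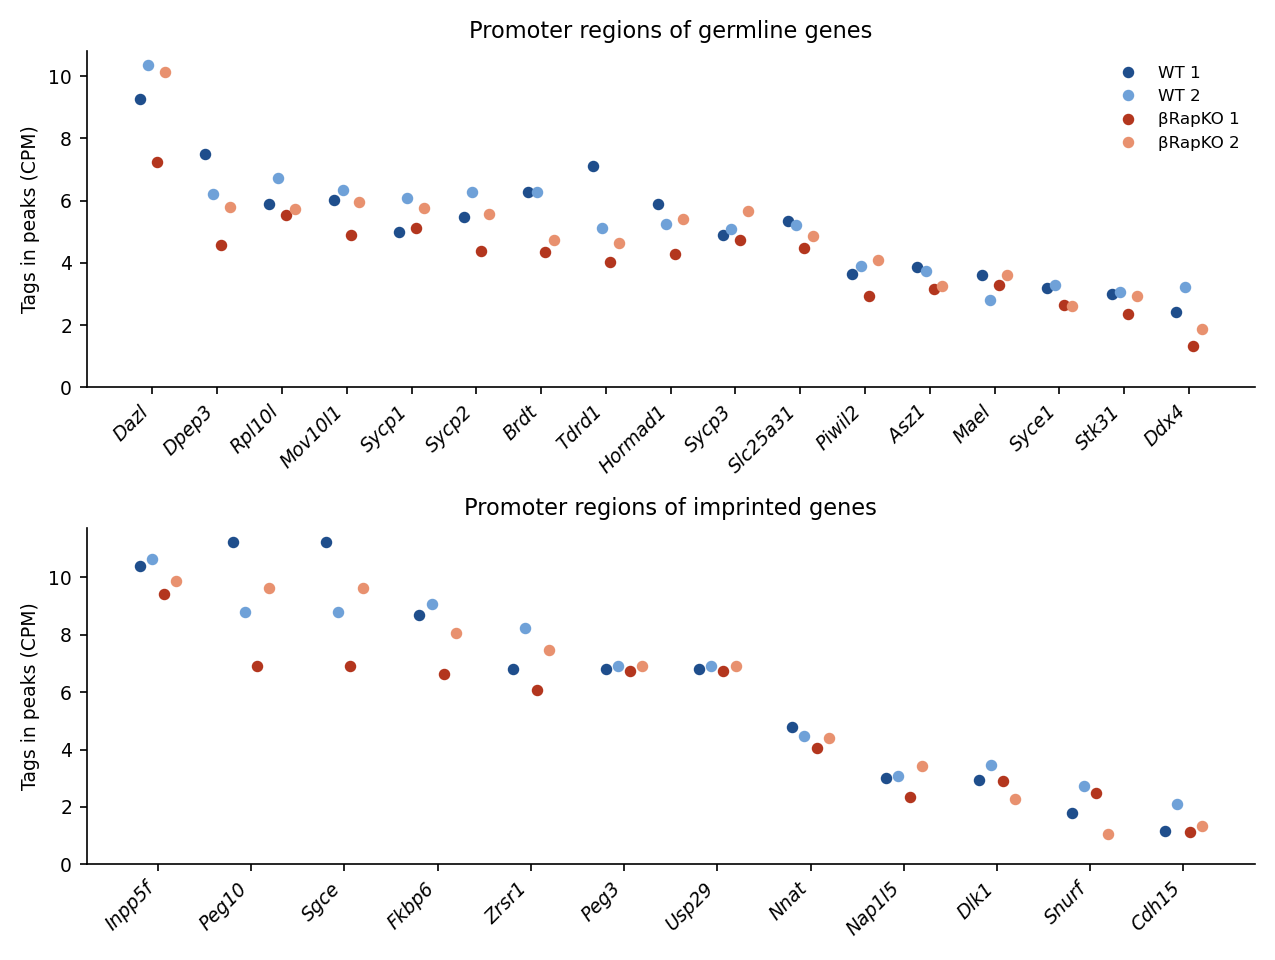
CPM (y axis) in the promoter regions of the 17 germline and the 12 imprinted genes with a peak in all 4 libraries, 1 point per library. Peg10 and Sgce, and Peg3 and Usp29, share a region; βRapKO replicate 1 is the lowest point at 14 germline and 10 imprinted genes, and βRapKO replicate 2 at 1 and 2.

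The groups of genes that islets use had 0 genes with a promoter region in all 4 libraries, where the share of all protein-coding genes, 8.32%, comes to about 1 gene in a group of this size. Their shares in any library stand beside 17.4% of all genes, and the differences were not tested. Among 12 islet hormone and granule genes, including Ins1, Ins2, Gcg, Iapp, Sst and Ppy, 0 had a region in all 4 libraries, and only Pyy, encoding peptide YY, had one in any (8.33%). None of 15 genes of mature β-cell function, such as Slc2a2, Slc30a8 and the K-ATP channel genes Abcc8 and Kcnj11, had a promoter region in any library. Neither did any of 10 α-cell and progenitor factors. Among 14 β-cell identity factors, which include Pdx1, Nkx6-1 and Mafa, only Foxa2 and Glis3 had one (14.3%), called in 1 and 2 libraries. Foxa2 had 1.18 CPM in WT replicate 2, and Glis3 had 3.19 CPM in WT replicate 2 and 2.57 CPM in βRapKO replicate 1.

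Of 14 genes of unrelated tissues, 5 (35.7%) had a promoter region in all 4 libraries, beside 8.32% of all protein-coding genes, a difference that was not tested. Among them were Myog, a muscle transcription factor, Acta1, skeletal actin, Crygd, a lens crystallin, and Krt10, a keratin of skin. Myog had 3.44 and 3.61 CPM in WT and 2.81 and 2.95 CPM in βRapKO at chr1:134289161-134291012. Crygd had 3.87 and 3.16 CPM in WT and 2.91 and 2.78 CPM in βRapKO at chr1:65062474-65064155. Krt10 had 2.50 and 3.45 CPM in WT and 2.74 and 3.77 CPM in βRapKO. The genotypes did not overlap at Myog and Crygd and overlapped at Krt10. Lower values without overlap were found at 29.6% of all promoter regions and 25.3% of all regions.

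Markers of other cells that islet preparations can hold were counted in the same way. Of 14 endothelial and blood cell markers, 3 (21.4%) had a region in all 4 libraries, beside 8.32% of all genes. Plvap, of fenestrated endothelium, had 3.48 and 3.67 CPM in WT and 3.05 and 2.95 CPM in βRapKO, so that the genotypes did not overlap. Cdh5, an endothelial cadherin, had 1.72 and 3.19 CPM in WT and 2.33 and 1.75 CPM in βRapKO, and Cd79a, of B cells, had 3.24 and 1.98 CPM in WT and 3.66 and 3.81 CPM in βRapKO. The genotypes overlapped at Cdh5, while at Cd79a both βRapKO values were the higher ones in CPM, with a log2 fold-change of 0.53 that was -0.05 per kb of peak. Of 14 acinar and duct cell markers only Krt19, a duct keratin, had such a region (7.14%, near the share of all genes), with 4.57 and 2.04 CPM in WT and 2.57 and 2.37 CPM in βRapKO. The share of such cells in each library was not measured. Of all promoter regions, 29.6% were lower and 10.2% higher in βRapKO without overlap, beside 25.3% and 11.7% of all regions.

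**Figure D3:**
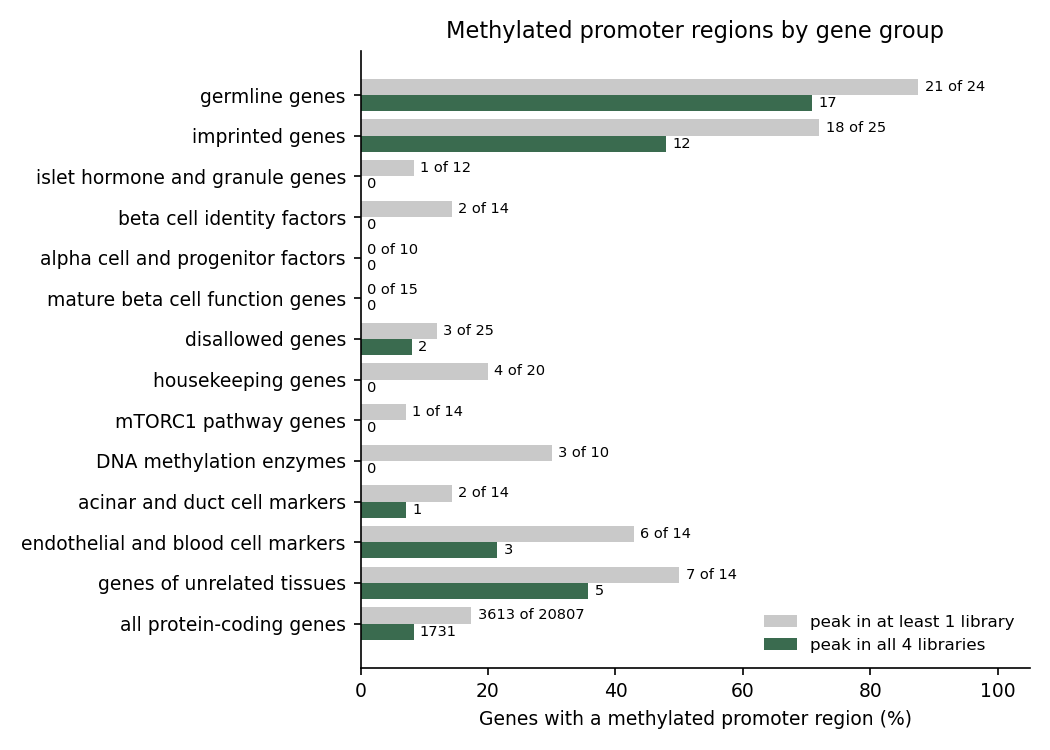
Percent of the genes of each group with a promoter region (x axis), called in at least 1 library (grey) or in all 4 (green), with the number of genes beside each bar. Germline genes (17 of 24) and imprinted genes (12 of 25) stand above all protein-coding genes (1731 of 20807), and 7 groups have 0 genes in all 4 libraries.

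Of 25 disallowed genes, which β-cells normally keep silent, 2 (8.00%) had a promoter region in all 4 libraries, a share near the 8.32% of all protein-coding genes. Slc16a1, a transporter of lactate and pyruvate, had a region that ended 740 bp before its start (chr3:104636507-104637928), with 1.95 and 1.66 CPM in WT and 1.81 and 2.33 CPM in βRapKO. Igfbp4, which binds insulin-like growth factors, had a region beginning 315 bp after its start (chr11:99041559-99043692), with 5.24 and 5.43 CPM in WT and 4.04 and 4.87 CPM in βRapKO. The genotypes overlapped at Slc16a1 and did not overlap at Igfbp4. Lower values without overlap were found at 29.6% of all promoter regions and 25.3% of all regions.

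Genes of mTORC1 signalling, all 14 with CpG-rich promoters, had 0 regions in all 4 libraries. Only Sesn2, a sensor of leucine, had one, in 3 libraries (7.14% of the group). Of all CpG-rich genes, 5.39% had a region in all 4 libraries and 11.8% had one in any. Among 10 genes with a role in DNA methylation or its removal, 0 had a region in all 4 libraries and 3 had one in any (30.0%). Dnmt3a, a de novo methyltransferase, had one in WT replicate 2 alone (1.05 CPM, ending 990 bp before the start). Dnmt1, the maintenance methyltransferase, had one in 3 libraries and Dnmt3l in 2. Among 20 housekeeping genes 0 had a region in all 4 libraries and 4 had one in 1 to 3 libraries.

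The genotypes were compared at the 1664 promoter regions called in all 4 libraries, with edgeR's quasi-likelihood test fitted to all 72519 such regions of the genome. With a fold-change above 1.5 and an FDR under 0.05 as thresholds, 0 promoter regions were lower and 0 were higher in βRapKO, and the same was true of all regions (0.0% lower, 0.0% higher). The smallest adjusted p was 0.380 among promoter regions and 0.182 among all regions. DESeq2 and limma also made 0 calls. At an unadjusted p under 0.05, edgeR had 97 promoter regions lower (5.83%) and 22 higher (1.32%), beside 3.93% and 1.90% of all regions, DESeq2 had 16 and 12, and limma had 95 and 20. With the tags in peaks as library size the balance turned, with 23 lower and 69 higher.

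More promoter regions had lower than higher counts in βRapKO, although 0 passed the test. In CPM, the median of the log2 fold-changes was -0.10 over promoter regions and -0.06 over all regions, and 66.3% of promoter regions were lower in βRapKO, beside 60.7% of all regions. The genotypes did not overlap at 492 promoter regions that were lower in βRapKO (29.6%) and at 169 that were higher (10.2%), beside 25.3% and 11.7% of all regions. A fold-change above 1.5 was reached by 52 promoter regions that were lower (3.12%) and 18 that were higher (1.08%), beside 1.80% and 1.30% of all regions. The direction depended on the scaling, since with the tags in peaks as library size the median was 0.07 at promoters and 0.10 over all regions. Without βRapKO replicate 1 the median at promoters was -0.05.

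Per kb of called peak the shift was larger with the tags left after filtering as library size, and it was -0.03 on the log2 scale with the tags in peaks as library size. The median density at promoter regions was 2.01 and 2.14 tags per kb and 1000000 tags in WT, against 1.80 and 1.84 in βRapKO. Both βRapKO values were below both WT values, with means of 2.07 ± 0.0934 (SD, n = 2) and 1.82 ± 0.0300 (SD, n = 2), a log2 ratio of -0.19. The exact two-sided permutation test gave p = 0.33, the smallest it can give with 2 libraries against 2. Over all regions the log2 ratio was -0.18. By this measure 82.2% of promoter regions were lower in βRapKO, beside 79.7% of all regions. Median CPM at promoters was 2.66 and 2.65 in WT and 2.36 and 2.57 in βRapKO (log2 ratio -0.11, exact two-sided permutation test, p = 0.33). The called peaks were wider in βRapKO on average, and a wider peak lowers the tags per kb. The library medians of peak width at promoters were 1295 and 1208 bp in WT and 1284 and 1366 bp in βRapKO, so that the genotypes overlapped. They averaged 1251 bp in WT and 1325 bp in βRapKO (exact two-sided permutation test, p = 0.67). The log2 ratio of these widths was 0.08 at promoters and 0.12 over all regions. The part of peak width in the lower density was not tested.

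The 3 CpG classes had nearly the same median, -0.10 for 492 regions of CpG-rich genes, -0.09 for 614 of intermediate genes and -0.11 for 542 of CpG-poor genes. The CpG density of the region itself went with a steeper gradient. Promoter regions with 1 to 2 CpG sites per 100 bp had a median log2 fold-change of -0.05 (n = 745), those with 2 to 3 sites -0.11 (n = 645), those with 3 to 5 sites -0.17 (n = 194) and those with over 5 sites -0.22 (n = 17). The share lower in βRapKO was 59.1%, 70.1%, 83.5% and 94.1% in the same order. All regions of the genome showed the same gradient, with medians of -0.04, -0.08, -0.13 and -0.21. Depth was lowest in WT replicate 1, and the part of depth or of antibody enrichment in the gradient was not tested.

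**Figure D4:**
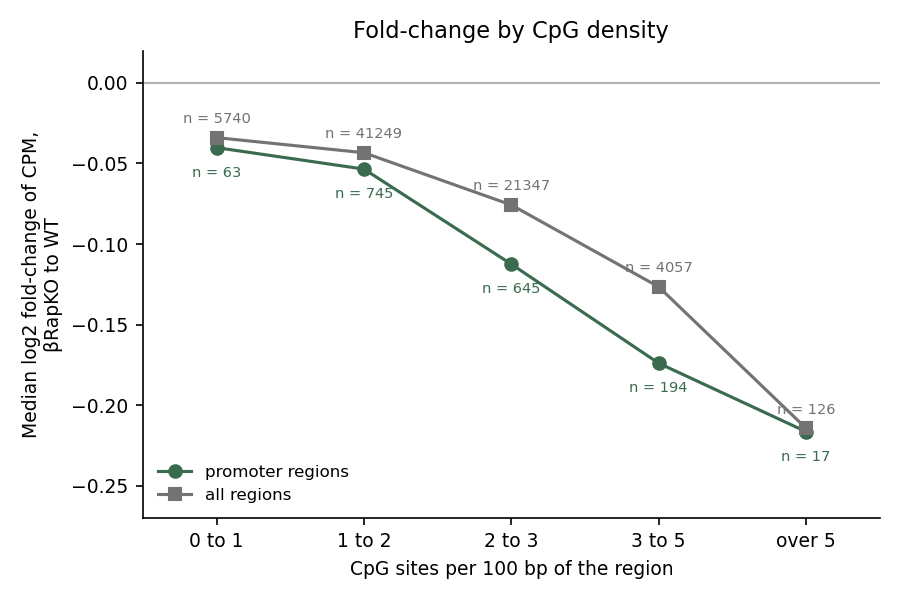
Median log2 fold-change of CPM between βRapKO and WT (y axis) by the number of CpG sites per 100 bp of the region (x axis), for promoter regions (green circles) and all regions called in all 4 libraries (grey squares), with the number of regions beside each point. Both lines fall as CpG density rises, from -0.04 to -0.22 at promoters.

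The germline and the imprinted genes lay below the median of all promoter regions, but so did groups with mainly CpG-poor promoters. The median was -0.19 over the 5 genes of unrelated tissues tested, a group with 8 of 14 promoters CpG-poor. It was -0.26 over the 3 endothelial and blood cell markers tested, a group with 11 of 14 promoters CpG-poor. Over the 2 disallowed genes tested it was -0.03. Of the 17 germline promoters tested, 15 had a log2 fold-change below 0, with a median of -0.19, beside 66.3% of all promoter regions below 0 and a median of -0.10. Only Ddx4, Tdrd1 and Brdt had an unadjusted p under 0.05 by edgeR's test (3 of 17, beside 5.83% of promoter regions and 3.93% of all regions lower at that p), and 0 had an adjusted p under 0.05. Ddx4, a helicase of germ cells, had 2.42 and 3.22 CPM in WT and 1.34 and 1.89 CPM in βRapKO (log2 fold-change -0.82, SE 0.251, adjusted p = 0.802 by edgeR's quasi-likelihood test). Tdrd1, a tudor domain protein, had 7.11 and 5.11 CPM in WT and 4.04 and 4.63 CPM in βRapKO (log2 fold-change -0.49, SE 0.200, adjusted p = 0.855 by the same edgeR test). Brdt, a testis bromodomain protein, had 6.29 and 6.29 CPM in WT and 4.35 and 4.73 CPM in βRapKO (log2 fold-change -0.47, SE 0.147, adjusted p = 0.821 by the same edgeR test). At these 3 genes, picked by their unadjusted p, the genotypes did not overlap. Of all promoter regions 29.6% were lower without overlap, beside 25.3% of all regions. At Dazl the log2 fold-change was -0.18 (SE 0.171), and without βRapKO replicate 1 it was 0.05. All 12 imprinted genes, on 10 regions, had a log2 fold-change below 0, beside 66.3% of promoter regions and 60.7% of all regions, with a median of -0.21 and 0 with an unadjusted p under 0.05.

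The size of the shift in the germline and the imprinted genes depended largely on 1 library and on the scaling, although both medians stayed below 0. Over the germline and the imprinted genes the medians were -0.13 and -0.15 with TMM, and -0.27 and -0.26 per kb of peak. Without βRapKO replicate 1, the median was -0.08 over the germline genes, with 12 of 17 below 0, and -0.05 over the imprinted genes, with 8 of 11 below 0. Without WT replicate 1 the imprinted median was -0.12, and without WT replicate 2 it was -0.08 with 9 of 12 below 0. Without βRapKO replicate 2 the germline median was -0.36. With the tags in peaks as library size, which moved the median of all regions up to 0.10, the median was -0.03 with 13 of 17 below 0 over the germline genes and -0.05 with 6 of 12 below 0 over the imprinted genes.

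The 4 promoter regions with the smallest p in each direction did not pass the adjustment, and their differences went with the width of the called peaks. Cort, encoding the neuropeptide cortistatin, had 17.0 and 16.9 CPM in WT and 7.43 and 9.87 CPM in βRapKO (log2 fold-change -0.97, SE 0.144, adjusted p = 0.380 by edgeR). Its WT peaks were 6107 and 6110 bp wide and covered the start, including the sequence printed above. The βRapKO peaks were 2872 and 3656 bp wide and ended 2415 and 1371 bp before the start. Per kb of peak the values were 2.79 and 2.76 in WT and 2.59 and 2.70 in βRapKO, a log2 fold-change of -0.07.

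Tmem132b, a transmembrane protein gene, had 3.17 and 3.54 CPM in WT and 1.27 and 1.47 CPM in βRapKO (log2 fold-change -1.29, SE 0.203, adjusted p = 0.380 by edgeR), and -0.31 per kb of peak. Ptger1, a prostaglandin E2 receptor, had 17.6 and 18.4 CPM in WT and 11.0 and 12.2 CPM in βRapKO (log2 fold-change -0.64), and -0.20 per kb. Ccdc155, a protein that moves meiotic chromosomes, had 1.92 and 1.95 CPM in WT and 0.958 and 1.03 CPM in βRapKO (log2 fold-change -0.96), and -0.25 per kb. None of these 3 regions covered the gene start. All 4 lower regions kept the sign per kb.

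Of the 4 higher regions, 3 turned to the other sign per kb of peak. Crtap, a cartilage-associated protein that modifies collagen, had 1.68 and 0.989 CPM in WT and 3.15 and 2.54 CPM in βRapKO (log2 fold-change 1.11, SE 0.277, adjusted p = 0.594 by edgeR), but -0.27 per kb. Pop5, a subunit of RNase P, had 1.37 and 1.82 CPM in WT and 2.77 and 2.85 CPM in βRapKO (log2 fold-change 0.80), but -0.73 per kb. Enpep, glutamyl aminopeptidase, had 3.75 and 4.31 CPM in WT and 5.54 and 6.03 CPM in βRapKO (log2 fold-change 0.52), but -0.18 per kb. Gm17349, a predicted gene, had 1.09 and 1.66 CPM in WT and 2.81 and 2.81 CPM in βRapKO (log2 fold-change 1.01), and 0.10 per kb. At each of the 4 the βRapKO peaks were wider, as at Pop5 with 448 and 798 bp in WT and 1707 and 1933 bp in βRapKO.

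**Figure D5:**
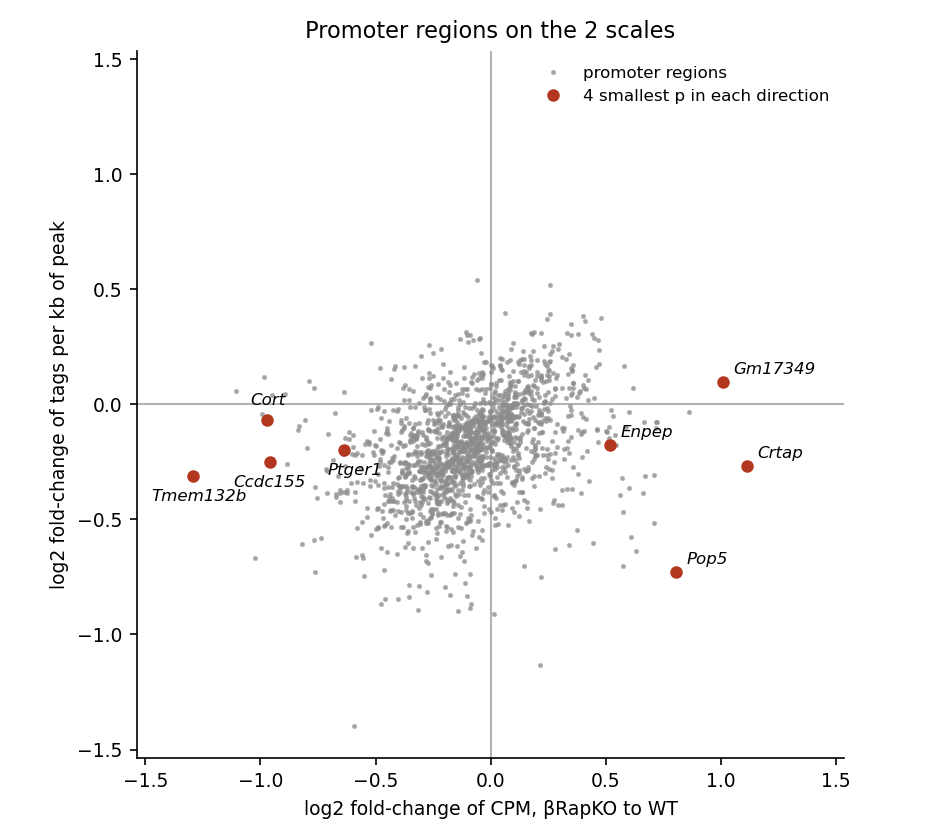
Log2 fold-change between βRapKO and WT of CPM (x axis) and of tags per kb of peak (y axis) for the 1664 promoter regions called in all 4 libraries, with the 4 smallest p in each direction in red. Crtap, Pop5 and Enpep are above 0 in CPM and below 0 per kb, and Cort moves from -0.97 to -0.07.

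Calls in one genotype only were few. A peak in both WT and neither βRapKO library was found at 138 promoter regions (3.84%, beside 4.19% of all regions), and a peak in both βRapKO and neither WT library at 55 (1.53%, beside 1.59%). These shares were near those of all regions. The peaks were weak, with a median highest score (the −log10 of the caller's p times 10) of 79.2 and 77.2, against 185 at promoter regions called in all 4 libraries. When each library kept the same number of top-ranked peaks, the counts were 80 and 88, so that the excess in WT was not kept in that setting. It was kept with stricter peaks and with the other windows.

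The WT-only regions with the most tags were at Sp110 and Sp140, neighbouring immune genes that share the region, with 10.2 and 6.99 CPM, at Pyy with 8.64 and 8.17 CPM, and at Mgst2, a glutathione transferase, with 4.26 and 3.32 CPM. The Pyy peaks (chr11:102105728-102109472) covered the start, and Pyy is made in islet cells other than mature β-cells as well as in gut. The βRapKO-only regions with the most tags were at Pck1, the gluconeogenic enzyme PEPCK, with 6.98 and 8.60 CPM, at Cd22, a B-cell lectin, with 4.76 and 3.43 CPM, and at Slc39a2, a zinc transporter, with 2.70 and 2.23 CPM. The Pck1 peaks (chr2:173152413-173156015) covered the start. A test of counts is not possible at these regions, because the other genotype has no count.

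The promoter regions with the highest CPM were at Gm21738, Gm10801, Sfi1, Gm10800 and the neighbours 3110070M22Rik and Tmem267, and the same 5 regions had the most tags per kb. Gm21738 had 279 and 229 CPM in WT and 244 and 247 CPM in βRapKO, and 81.4% of its region was repeat sequence. Gm10801 had 81.3 and 80.2 CPM in WT and 70.6 and 71.5 CPM in βRapKO, with no overlap between the genotypes and an adjusted p of 0.851 by edgeR. Lower values without overlap were found at 29.6% of all promoter regions and 25.3% of all regions. At Sfi1, a centrosome gene with 41.3% repeats in its region, the values were 61.0 and 66.4 CPM in WT and 74.7 and 62.0 CPM in βRapKO. Peaks were called without a control library, and whether the tags at these 5 regions come from methylated DNA was not tested.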

How the data were processed

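Methylated DNA of islets was measured by MeDIP-seq in 4 libraries, grouped by the genotype and replicate number in the labels. The authors aligned the reads with Bowtie2 2.2.5 (per the labels), kept 1 tag per position and called peaks in each library with MACS without a control (p cutoff 1e-05, local background 10000 bp, tags of 50 bp). The labels give MACS version 0.14.2 and the file headers 1.4.2. Both mm10 and mm9 stand in the labels, and the peaks fit the chromosome lengths of mm10. The authors deposited for each peak a count of tags, which was not normalized, a score, which is the −log10 of the p-value times 10, and the fold by which it exceeded that background.

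Tags of a library in a region were summed and scaled to CPM with the tags left after filtering (1000000 tags as unit, no further normalization factor). Regions called in all 4 libraries were tested with edgeR 4.0.16 (R 4.3.3, quasi-likelihood, Benjamini-Hochberg adjustment), and library medians with an exact permutation test (SciPy 1.17.1). The fit was checked on simulated data. CpG sites and repeats (lower-case bases) came from the GRCm38 genome, gene starts from GENCODE M21 and printed sequences from RefSeq (GRCm38.p6, 13112 genes with a start within 500 bp).

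The genes named were, for each group, the 4 with the highest mean CPM in a region called in all 4 libraries, the 4 regions per direction with the smallest p, the 3 of highest CPM called in only that genotype, for each genotype, the 5 highest by CPM and by tags per kb, and Rptor, Dnmt3a, Ins1, Ins2 and Gcg. Ddx4, Tdrd1, Brdt and the genes named as having few or no calls were chosen after their values were seen. The printed sequences of Tdrd1, Hormad1, Sycp1, Mtor and Slc2a2 also fall outside the rule. The promoter regions and gene groups were chosen with earlier results of these data known. Sytl4, on chromosome X, was left out of its group. Some genes covered by this rule are not reported here.

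The alternatives were the tags in peaks as library size, TMM, DESeq2 1.42.0, limma 3.58.1 on log2(CPM + 0.5), tags per kb, tags scaled to the window, at least 50 tags per library, a score of at least 100, an equal number of top-ranked peaks, an overlap of 50% of the shorter peak, other windows, chromosomes X and Y, other thresholds and CpG classes, a replicate block and leaving out each library in turn. A further pair, described next, was chosen after seeing the data: regions covering a gene start, and regions with at most 50% repeats.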

Additional observations from a re-analysis of the deposited data

How the results depend on the processing

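The 0 calls in either direction held under every alternative, leaving out each library included. The median log2 fold-change of promoter regions turned to 0.0662 with the tags in peaks as library size, and that of all regions turned to 0.104 there, to 0.00325 with TMM and to 0.00166 with DESeq2. The promoter median stayed below 0 under the other alternatives and lay between -0.138 and -0.0484 when a library was left out. The density ratio moved to -0.0265 with the tags in peaks as library size and lay between -0.234 and -0.136 without 1 library. The spread between libraries of a genotype was up to 0.0867 for the median and 0.0651 for the density.

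Promoter regions lower at an unadjusted p under 0.05 numbered 23 with the tags in peaks as library size (69 higher), 64 with TMM (37 higher), 251 per kb (3 higher), 53 with stricter peaks (10 higher), and 63, 52, 58 and 160 (29, 33, 42 and 32 higher) without WT replicate 1, WT replicate 2, βRapKO replicate 1 and βRapKO replicate 2. Regions that cover a gene start gave 40 lower and 6 higher with a median of -0.112, and regions with at most 50% repeats gave 93 and 18 with a median of -0.109.

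Regions called in WT only numbered 80 with equal numbers of peaks, 216 with the window from 2000 bp upstream and 66 with 200 bp on each side. Regions called in βRapKO only numbered 88, 90 and 21 in the same order, and 23 with stricter peaks. Genes with a region in all libraries numbered 845 with stricter peaks, 960 with 200 bp on each side, and between 1761 and 1934 when a library was left out. With classes by CpG sites per 100 bp the shares were 6.07%, 17.7% and 3.41% of CpG-rich, intermediate and CpG-poor genes.

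With the replicate block 0 regions were called, 114 were lower and 25 higher at an unadjusted p under 0.05, and the promoter median was -0.0973. Deviations of same-numbered libraries correlated at 0.0464 over regions. With 2 libraries per genotype this does not settle whether libraries were processed in pairs.

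Over 25 named promoters and 375 refits, 0 reached an adjusted p under 0.05 (the smallest was 0.192), and 14 changed sign. Per kb, Slc16a1 gave -0.0456, Cd79a -0.0523, Krt10 -0.213, Crtap -0.269, Pop5 -0.729 and Enpep -0.179. With tags scaled to the window, Crtap gave -0.0372 and Pop5 -0.845. Inpp5f gave 0.0366 with the tags in peaks as library size. Leaving out each library in turn, the range was -0.438 to 0.0458 at Dazl, -0.890 to 0.271 at Krt19, -0.646 to 0.244 at Cdh5 and -0.129 to 0.379 at Krt10. The causes were not tested. Tags outside peaks were not used here, so promoters below the caller's threshold have no value.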

Other observations

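Keratin genes were a further group with methylated promoters, chosen after the values were seen. Of 53 genes whose symbol begins with Krt, 22 (41.5%) had a promoter region in all 4 libraries, beside 8.32% of all protein-coding genes and 2 of 57 keratin-associated Krtap genes (3.51%). Of the 22, 18 had a log2 fold-change below 0, beside 66.3% of all promoter regions, with a median of -0.12, which turned to 0.04 with the tags in peaks as library size and was -0.07 without βRapKO replicate 1. The promoters of 33 of the 53 were CpG-poor and those of 19 were intermediate. Genes that share a cluster on a chromosome are not independent of each other.

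Other symbol groups counted in the same way lay on both sides of the 8.32% of all protein-coding genes. Above it were, among others, Rpl genes with 11 of 51 (21.6%), Cd genes with 18 of 97 (18.6%) and Lrrc genes with 11 of 66 (16.7%). Below it, Olfr genes, the olfactory receptors, had 17 of 1128 (1.51%). Vmn genes, the vomeronasal receptors, had 5 of 329 (1.52%), and Eif genes, of translation initiation, had 0 of 52. These differences were not tested.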
